A study of Mus musculus with 12 samples.

Results

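The untreated mouse ear was described here from the 4 libraries labelled Blank, out of 12 libraries in the series. All 4 came from ear tissue of wild-type mice that received no treatment, and they were chosen by their labels alone. The other libraries, 4 from ears given MC903 and 4 from ears given isoliensinine, were not analysed here, so no treated group is compared. Strain, age, sex, time of collection and the number of animals behind each library are not given in the sources used here. Nothing in the labels says that the 4 libraries came from separate animals, so the spread between them may be technical.

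The external ear of the mouse is a thin sheet of hairy skin on each side of a plate of elastic cartilage, with fat, small muscles, vessels and nerves between. Its epidermis is renewed from a basal layer, whose cells change their keratins as they move outward and at last form the cornified barrier. Elastic cartilage holds chondrocytes in a matrix of collagen, proteoglycan and elastin. Resident immune cells of mouse skin include Langerhans cells and gamma-delta T cells in the epidermis, and macrophages, dendritic cells and mast cells in the dermis. Whole-ear RNA mixes all of these. Checked against the label, genes of skin, cartilage and striated muscle were abundant in all 4 libraries, and of 8 inner ear genes 1 was at 1 FPKM or more.

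The 4 libraries were close to each other in depth and make-up. Their counts summed to 17004780, 16393357, 15791536 and 16078167 in replicates 1 to 4, over 56691 listed genes. Levels are given as FPKM, the count of a gene divided by its exon length and by the library's total count, so that genes can be compared per length. The length is the deposited exonic size of the gene, which may differ from that of the transcripts present. Orders and ratios between genes depend on it. A gene is called expressed at 1 FPKM or more in all 4 libraries, which held for 13571 genes, or 23.9% of those listed. Counts of expressed genes in the marker lists and families below are to be read beside that share. The listed genes include many pseudogenes and noncoding genes, few of which were expressed. Of 21858 protein-coding genes 12087 were expressed, which is the closer measure for lists of protein-coding genes. The 13571 expressed genes took 98.9% of all counts, and 336 genes at 100 FPKM or more took 31.3%. Mitochondrially encoded genes took 8.87% to 9.37% of the counts. Within these, mt-Co2, whose sequence is wholly shared with other genes, averaged 193 FPKM, beside 14005 FPKM for mt-Nd1, which shares none. How far such shared genes lower the percentage was not tested. For any pair of libraries the mean chi-square per degree of freedom over genes lay between 2.002 and 2.61, where counting error alone gives 1, so none is a copy of another.

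Skin of the outer layers led the profile, followed by striated muscle, dermis, cartilage and skin appendages. Marker genes were grouped in 51 lists, and lists of 1 tissue were joined into 9 systems. As a share of the summed FPKM of all genes, the 72 keratinocyte genes held 7.04%, 6.98%, 6.99% and 7.32% in replicates 1 to 4. The 57 muscle genes held 1.12%, 1.10%, 1.04% and 1.08%. The 29 dermal genes held 0.890%, 0.901%, 0.919% and 0.849%. The systems kept apart in all 4 libraries at this upper end, with muscle above dermis in each. Cartilage averaged 0.705% ± 0.0341 and appendages 0.702% ± 0.00784 (SD, n = 4), a difference smaller than their spread. Immune genes averaged 0.249% ± 0.00524, fat genes 0.147% ± 0.00451, nerve genes 0.110% ± 0.00412 and vessel genes 0.0955% ± 0.00358. These shares sum the listed genes, not cells, and fewer cells of a type cannot be told apart from less RNA per cell. As a percent of all counts, which weighs long genes more, dermis stood at 1.60% and above muscle at 1.05%.

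**Figure D1:**
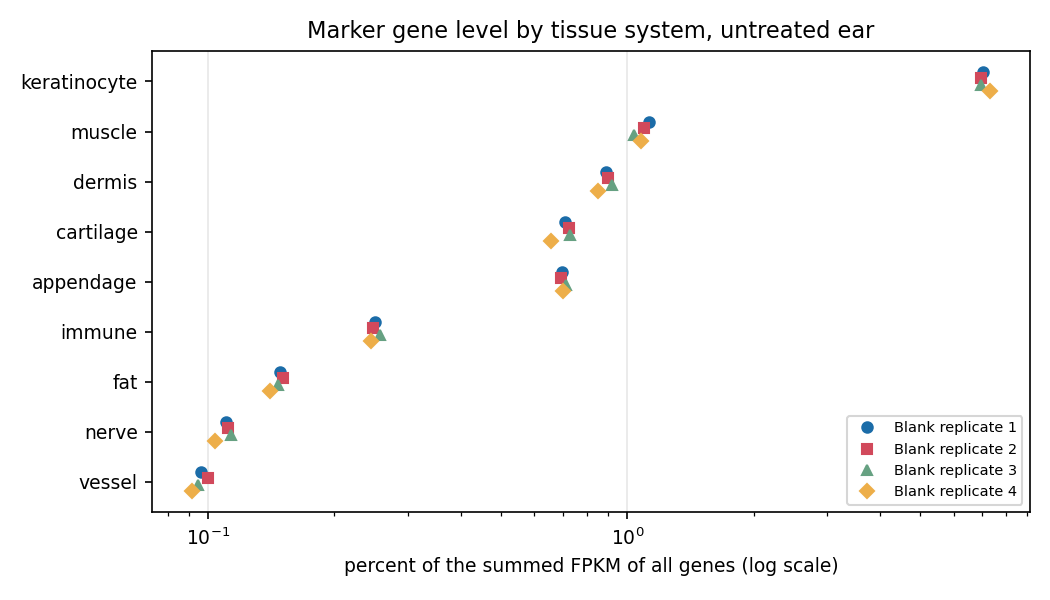
Percent of the summed FPKM of all genes (log scale, horizontal) held by the marker genes of each of 9 tissue systems (vertical), with 1 symbol for each of the 4 Blank libraries. Keratinocyte genes sit near 7% in every library and vessel genes near 0.0955%, and the 4 symbols of a system lie close together beside the gaps between most systems.

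Epidermal keratins were among the most abundant nuclear messages of the ear. Krt10, the type I keratin that cells make on leaving the basal layer, ranked first among genes not encoded in mitochondria, with 3632, 3462, 3475 and 3719.5 FPKM in replicates 1 to 4. Krt2, a type II keratin of the upper epidermis that pairs with it, ranked 3 with 2476, 2508, 2474 and 2695 FPKM. Eef1a1, a translation factor gene, lay between them by mean, with 2604, 2607, 2613 and 2679 FPKM. All 3 genes were highest in replicate 4. Promoter sequences of 2 keratin genes with the letters TATAA at the usual place, and of a keratin gene and a cartilage gene without them, are shown because these genes rank among the 12 highest. They come from RefSeq for build GRCm38.p6 and run 5′ to 3′ on the gene's own strand, from 60 bases before the annotated start to 20 bases from it, with TATAA in capitals where it begins 40 to 20 bases before the start. Krt10 lies at chr11:99389345-99389424 on the minus strand, Krt2 at chr15:101818150-101818229 on the minus strand, Krt5 at chr15:101712886-101712965 on the minus strand and Cytl1 at chr5:37735459-37735538 on the plus strand.
Krt10: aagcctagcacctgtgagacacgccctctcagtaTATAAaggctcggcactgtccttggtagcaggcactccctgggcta
Krt2: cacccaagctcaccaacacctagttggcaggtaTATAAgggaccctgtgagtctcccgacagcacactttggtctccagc
Krt5: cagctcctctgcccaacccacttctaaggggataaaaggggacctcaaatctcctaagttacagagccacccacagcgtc
Cytl1: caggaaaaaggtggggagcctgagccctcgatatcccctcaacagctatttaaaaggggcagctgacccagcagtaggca

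In that window and on the printed strand, TATAA was found in 3.52% of 32851 RefSeq promoters. Of the 20990 genes of the table that matched a promoter by symbol, 4.77% had it. Among the 100 matched genes with the highest mean FPKM, 18 had it, and 15 of the 70 that are not ribosomal protein genes. The share was 6.78% in the 900 genes that followed and 2.63% in the other expressed genes, but 6.21% in the matched genes that were not expressed. Searched on both strands over the whole 300-base window, the letters were in 37 of the 100 highest, in 34.4% of the matched genes that were not expressed and in 24.9% of all promoters. A match describes letters, not a binding site.

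The basal layer was represented by all 12 of its listed genes. Krt14, the type I keratin of basal cells, had 1917, 2026, 1955 and 2111 FPKM in replicates 1 to 4. Its partner Krt5 had 1499, 1519.7, 1533 and 1652 FPKM. The ratio of Krt14 to Krt5 was 1.29 ± 0.0282 (SD, n = 4), so the pair was of like level in each library. Krt15, a keratin of resting basal cells, averaged 380 ± 11.3 FPKM, and Col17a1, the collagen that anchors basal cells to the basement membrane, 187 ± 8.27 FPKM. Trp63, the transcription factor that maintains stratified epithelium, stood at 59.7 ± 2.46 FPKM.

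The spinous layer held the largest part of the epidermal signal, with all 13 listed genes expressed and a list median of 449 FPKM. Krt1, usually named as the partner of Krt10, had 452, 427, 444 and 447 FPKM, so the ratio of Krt10 to Krt1 was 8.07 ± 0.205. The ratio of Krt2 to Krt1 was 5.74 ± 0.259, and Krt77, another type II keratin, stood at 472 ± 19.7 FPKM. Thus in the untreated ear the second keratin by FPKM was Krt2, not Krt1. The transcripts of Krt1 hold 4658 distinct 50-base words, beside 2113 for Krt10 and 2564 for Krt2. The ratios to Krt1 depend on the exonic length used for each gene. Krtdap, a secreted product of differentiating keratinocytes, averaged 1599 ± 43.6 FPKM, and Perp, a membrane protein of desmosomes, 1448 ± 25.1 FPKM. Dmkn, which encodes the secreted protein dermokine, averaged 1113 ± 24.2 FPKM. Desmosomal Dsp stood at 322 ± 15.3 and Dsg1a at 400.0 ± 10.5 FPKM, Dsg1a sharing 35.02% of its 50-base words with other genes.

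Granular and cornified layer genes were expressed in 21 of 22 cases. Calm4, a skin calmodulin, had 1915, 1939, 1935 and 1936 FPKM, the smallest relative spread of the 10 highest genes not encoded in mitochondria. Asprv1, the protease that trims profilaggrin, averaged 548 ± 8.42 FPKM, and Lor, the main cornified envelope protein, 318 ± 4.27 FPKM. Filaggrin messages differed widely in level per length. Flg stood at 8.28 ± 0.730 FPKM, beside 111 ± 1.45 for Flg2 and 106 ± 1.78 for Hrnr, which encode relatives of the same fused-type S100 family. Of 21 late cornified envelope genes, 15 were expressed, and they held 0.554% ± 0.00439 of the summed FPKM. All 15 barrier lipid enzymes were expressed, led by Elovl4, which lengthens the fatty acids of skin ceramides, at 453 ± 10.2 FPKM. Alox12b, the lipoxygenase of the barrier lipid pathway, stood at 29.5 ± 2.17 FPKM. Fa2h, which hydroxylates such fatty acids but was placed in the sebaceous gland list, stood at 137 ± 4.19 FPKM.

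Keratinocyte stress genes were present at a lower level and differed between libraries. S100a9, a subunit of calprotectin, had 87.9, 52.9, 31.4 and 40.1 FPKM in replicates 1 to 4. Its partner S100a8 had 45.1, 24.2, 19.6 and 21.6 FPKM. Replicate 1 was the highest in both genes. Krt16, a keratin of activated epidermis, had 33.6, 28.7, 22.1 and 21.2 FPKM. Krt6b, a partner of it, had 21.02, 11.1, 9.10 and 10.8 FPKM, though 50.1% of its 50-base words lie in other genes. Krt17 was the highest of the list and nearly even, at 81.0 ± 3.45 FPKM. Between the libraries, 7 of the 10 listed genes varied beyond counting error, against 10.3% of the 17440 genes tested by the chi-square test with Benjamini-Hochberg adjustment. All 7 were highest in replicate 1 and 5 were lowest in replicate 3, against 422 and 406 of all 1797 genes that varied.

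**Figure D2:**
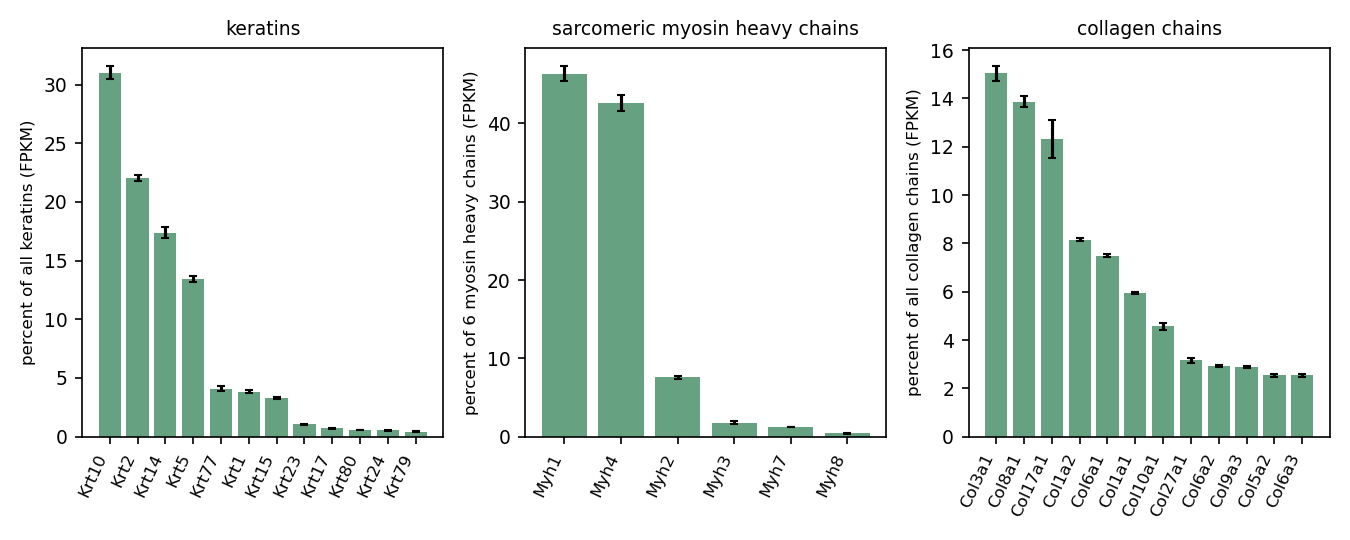
Percent of the summed FPKM of a gene family held by each of its leading members (vertical, starting at 0), for keratins, 6 sarcomeric myosin heavy chains and collagen chains, as the mean of the 4 Blank libraries with error bars of 1 SD. Krt10 at 31.0% leads the keratins and Myh1 at 46.4% the myosins, while collagen shares fall off more gradually from Col3a1 at 15.0%.

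As a family, the 54 keratins held 3.45% ± 0.122 of the summed FPKM, and 25 of them were expressed. Krt10 alone made 31.0% of the keratin sum, Krt2 22.04%, Krt14 17.4% and Krt5 13.5%. The 58 keratin-associated protein genes, which build the hair shaft, held 0.0272% ± 0.00861, with 6 expressed, against 23.9% of all listed genes.

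Among skin appendages the sebaceous gland stood out. Scd1, the desaturase abundant in sebocytes and also used by fat cells, had 1456, 1453, 1487 and 1403 FPKM and made 61.9% of the appendage sum. All 14 sebaceous genes were expressed. Elovl3, an elongase of sebum lipids, averaged 88.6 ± 2.61 FPKM, Far2, a maker of wax alcohols, 57.8 ± 1.03 FPKM and Awat1, a wax synthase, 53.3 ± 1.37 FPKM. Without Scd1 the appendage share was 0.268%. All 10 outer root sheath and follicle stem cell genes were expressed, led by Krt79 at 48.4 ± 0.925 FPKM, with the stem cell gene Lgr5 at 1.19 ± 0.116 FPKM.

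Hair shaft and inner root sheath genes were low and uneven. Of 21 such genes in the table, 11 were expressed. Tchh, which encodes trichohyalin of the inner root sheath, had 10.3, 11.7, 10.5 and 19.1 FPKM in replicates 1 to 4. Krt71, an inner root sheath keratin, had 16.03, 14.5, 16.2 and 24.0 FPKM. Krt27, a type I keratin of that sheath, had 9.30, 11.4, 11.2 and 18.7 FPKM. Replicate 4 was the highest in all of these. Across the list, 11 of 20 tested genes varied, against 10.3% of all genes tested. Each of the 11 was highest in replicate 4, as were 552 of all 1797 genes that varied. The list's share of the summed FPKM was 0.0220% in replicates 1, 2 and 3 and 0.0351% in replicate 4. Hair follicles grow and rest in cycles, and the sources used here do not state the cycle stage of these ears.

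Pigment and touch cells were faint. Of 9 melanocyte genes 4 were expressed, led by Mitf, the lineage transcription factor, at 4.11 ± 0.182 FPKM, with the pigment enzyme gene Tyrp1 at 3.86 ± 0.537 and Dct at 2.45 ± 0.268 FPKM. Of 7 Merkel cell and simple epithelium genes 1 was expressed, Krt8 at 1.64 ± 0.372 FPKM. Atoh1, the factor that makes Merkel cells, had no count in any library, which allows a level of up to 0.0217 FPKM over the 4 libraries.

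**Figure D3:**
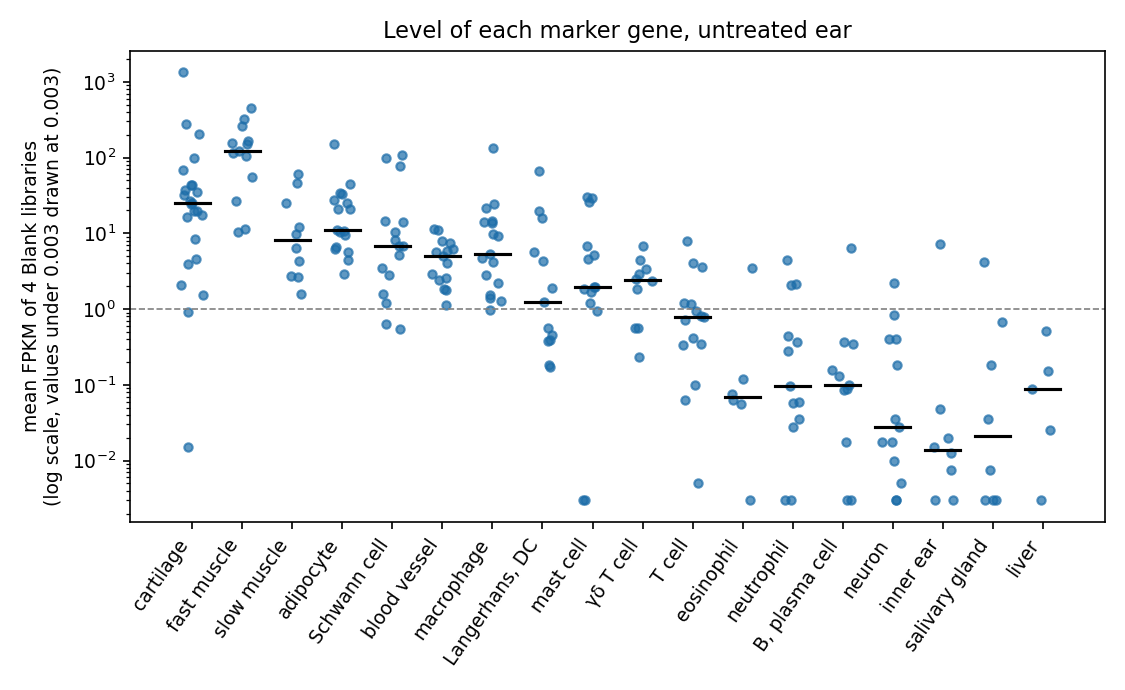
Mean FPKM of the 4 Blank libraries (vertical, log scale, values under 0.003 drawn at 0.003) for each marker gene of 18 lists (horizontal), as 1 point a gene, with a black bar at the median of the list and a dashed line at 1 FPKM. All points of the fast muscle and adipocyte lists lie above the line, while most points of the neutrophil, B cell, neuron, inner ear and liver lists lie below it.

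The dermis was rich in matrix messages. All 19 fibroblast and collagen genes and all 10 elastic fibre genes were expressed. Sparc, a secreted collagen-binding protein made by fibroblasts and other cells, had 1208, 1228, 1258 and 1136 FPKM and held 44.7% of the fibroblast list. Dcn, the small proteoglycan decorin, averaged 305 ± 11.5 FPKM. Col3a1 had 231, 234, 233 and 216 FPKM and Col1a1, the main chain of adult dermal collagen, 90, 91.4, 92.5 and 87.3 FPKM. The ratio of Col3a1 to Col1a1 was 2.53 ± 0.0465, so the chain of type III collagen was the more abundant message per length. Col1a2, the partner of Col1a1 in type I collagen, stood at 124 ± 3.96 FPKM. Of the 44 collagen genes 36 were expressed. Col8a1, a short-chain collagen of vessel walls and basement membranes, came second of all collagens with 13.9% of their sum, after Col3a1 with 15.0%. Eln, the elastin gene that both dermis and elastic cartilage use, had 108, 112, 118 and 102 FPKM. Replicate 4 was the lowest for each dermal gene given here library by library. Of 29 dermal genes 14 varied, against 10.3% of all genes tested and 730 of the 3786 with a mean count of 1000 or more. Of these 14 dermal genes, 13 were lowest in replicate 4, against 505 of all 1797 genes that varied.

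Cartilage genes were well represented. Of 24 cartilage genes 22 were expressed. Cytl1, a secreted cytokine-like protein of chondrocytes, had 1347, 1411, 1379 and 1222 FPKM, ranked 12 among genes not encoded in mitochondria and held 56.8% of the cartilage list. Chad, which encodes the chondrocyte-binding protein chondroadherin, had 283, 286, 286 and 264 FPKM. Replicate 4 was the lowest in both. Fmod, the collagen-binding fibromodulin of cartilage and tendon, averaged 207 ± 8.47 FPKM, and Acan, the core protein of the main cartilage proteoglycan, 97.4 ± 2.99 FPKM. Col10a1, the collagen known for hypertrophic chondrocytes, stood at 69.3 ± 3.58 FPKM.

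Col2a1, the textbook collagen of cartilage, was among the lower members. It had 8.42, 8.70, 8.97 and 7.57 FPKM, and the ratio of Acan to Col2a1 was 11.6 ± 0.512 and that of Col10a1 to Col2a1 8.25 ± 0.214. Its fibril partners were higher, with Col9a3 at 44.0 ± 1.81 FPKM and Col11a2 at 26.8 ± 1.51 FPKM. Sox9, the transcription factor that defines chondrocytes and also works in hair follicles, had 28.4, 28.2, 28.5 and 25.2 FPKM. Matn1, which encodes a cartilage matrix protein, had 2 counts in all. Of 23 cartilage genes tested 11 varied, against 10.3% of all genes tested and 730 of the 3786 with a mean count of 1000 or more. All 11 were lowest in replicate 4, as were 505 of all 1797 genes that varied. Without Cytl1 the share of the cartilage list was 0.304%.

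Fat genes took a small share, with all 17 adipocyte genes expressed. Car3, a carbonic anhydrase of adipocytes that muscle also makes, averaged 150 ± 6.36 FPKM, and Fabp4, the fatty acid carrier of fat cells, 44.2 ± 1.73 FPKM. Adipoq, the gene for the fat hormone adiponectin, had 19.8, 22.8, 22.1 and 18.6 FPKM. Plin1, the coat protein of the lipid droplet, had 6.51, 6.61, 6.62 and 6.44 FPKM. Lep, the leptin gene, averaged 4.48 ± 0.612 FPKM. Adipoq, Car3, Fabp4 and Plin1 were each lowest in replicate 4, and Lep in replicate 1. Brown fat genes were mixed, with 5 of 8 expressed. Ucp1, the uncoupler that defines brown and beige fat, had 0.400, 0.670, 0.150 and 0.460 FPKM, from 45 counts in all, while Cox8b, which brown fat shares with striated muscle, averaged 39.2 ± 3.14 FPKM.

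Striated muscle was the second system by summed FPKM, and its messages were those of fast fibres. All 18 genes shared by striated muscles, all 13 fast fibre genes and all 10 slow fibre genes were expressed. Tnnt3, the fast isoform of troponin T, had 452, 455, 425 and 445 FPKM. Acta1, skeletal alpha-actin, had 407, 378, 372 and 385 FPKM. Mylpf, the fast regulatory light chain, had 340.2, 338, 301 and 329 FPKM. Replicate 3 was the lowest in all of these. Slow counterparts were much lower. Tnnt1, the slow troponin T, averaged 46.2 ± 3.41 FPKM, and the ratio of Tnnt3 to Tnnt1 was 9.65 ± 0.441. For the inhibitory troponins, the ratio of fast Tnni2 to slow Tnni1 was 58.3 ± 4.94. The summed fast list was 11.3 ± 0.260 times the summed slow list.

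Myosin heavy chains gave the same order of fibre types. Myh1, the chain of type IIx fibres, had 172, 169, 154 and 163 FPKM and made 46.4% of 6 heavy chains. Myh4, of type IIb fibres, had 157, 147, 146 and 155 FPKM and made 42.6%. Myh2, of type IIa fibres, averaged 26.9 ± 1.46 FPKM, and slow Myh7 4.24 ± 0.116 FPKM. Myh1 was above Myh4 in each library, though their ranges over the libraries overlap. Part of these chains' sequence is shared, with 30.5% of the 50-base words of Myh1 and 18.9% of those of Myh4 found in other genes. Pvalb, the calcium buffer of the fastest fibres, averaged 124 ± 8.93 FPKM, and Atp2a1, their calcium pump, 260 ± 9.03 FPKM. Mb, the oxygen store myoglobin, stood at 239 ± 16 FPKM.

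Genes of immature muscle were low. Myh3, the embryonic heavy chain, averaged 6.40 ± 0.565 FPKM, and Pax7, the factor of muscle stem cells, 0.245 ± 0.0265 FPKM. Of 6 genes for heart muscle 2 were expressed, Tnnt2 at 3.65 ± 0.0854 FPKM and Tnni3 at 1.56 ± 0.22 FPKM. Over the muscle lists 31 of 53 tested genes varied, with replicate 1 the highest in 20 and replicate 3 the lowest in 20. This compares with 10.3% of all genes tested and 730 of the 3786 with a mean count of 1000 or more. Among all 1797 genes that varied, 422 were highest in replicate 1 and 406 lowest in replicate 3. Of the 18 shared muscle genes 16 varied.

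Vessels and nerves were the smallest systems. All 15 blood endothelial genes were expressed, led by Plvap, a protein of endothelial diaphragms, at 11.6 ± 0.950 FPKM, with Pecam1, the adhesion protein at endothelial junctions, at 11.1 ± 0.409 FPKM. Of 7 lymphatic genes 5 were expressed at 1 FPKM. Ccl21a, a chemokine of lymphatic endothelium, averaged 58.0 ± 2.29 FPKM but shares 71.6% of its 50-base words with other genes. Lyve1, a hyaluronan receptor of lymphatics that some macrophages also carry, stood at 5.47 ± 0.436 FPKM. Of 11 smooth muscle and pericyte genes 9 were expressed, with Rgs5, a pericyte gene, at 22.8 ± 1.04 FPKM and Acta2, the actin of smooth muscle, at 16.4 ± 0.706 FPKM. Hbb-bs, an adult beta-globin of red cells, had 46.6, 57.0, 46.8 and 45.8 FPKM, highest in replicate 2.

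Nerve genes at higher levels were those of myelinating glia, and most listed genes of nerve cells were near 0. Of 16 Schwann cell genes 14 were expressed. Pmp22, a peripheral myelin protein that fibroblasts make too, averaged 109 ± 3.90 FPKM. S100b, a calcium-binding protein of Schwann cells that chondrocytes and fat cells make too, had 100.8, 101.6, 101.5 and 92 FPKM. Mbp, myelin basic protein, stood at 14.6 ± 0.337 FPKM. Sensory axons reach the ear from cell bodies elsewhere, and their genes Calca, Tac1, Scn9a and Scn10a had 1 or 2 counts each. Of 20 nerve genes tested 5 varied, against 10.3% of all genes tested and 730 of the 3786 with a mean count of 1000 or more. All 5 were lowest in replicate 4, as were 505 of all 1797 genes that varied.

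Immune genes were low, and those of macrophages, antigen-presenting cells and mast cells stood highest. Ptprc, the CD45 gene of all white blood cells, had 2.20, 2.31, 2.25 and 2.26 FPKM. Of 122 immune genes, 63 were expressed, against 23.9% of all listed genes but 12087 of 21858 protein-coding genes. Of 17 macrophage and monocyte genes 15 were expressed. Lyz2, the lysozyme of myeloid cells, averaged 133 ± 4.86 FPKM, C1qa, a complement subunit made by tissue macrophages, 24.5 ± 1.22 FPKM and Mrc1, the mannose receptor of dermal macrophages, 14.3 ± 1.07 FPKM. All 8 class II genes were expressed, with Cd74, the invariant chain, at 130 ± 3.70 FPKM and H2-Eb1 at 40.5 ± 1.06 FPKM.

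Cd207, the gene of langerin, which marks Langerhans cells, had 18.0, 18.7, 20.1 and 21.3 FPKM. Epcam, which Langerhans cells share with other epithelial cells, averaged 66.4 ± 2.22 FPKM. Xcr1, a receptor of the cross-presenting dendritic cells that carry langerin too, stood at 0.180 ± 0.0327 FPKM. The ratio of Cd207 to Xcr1 was 81.9, 104, 112 and 152 in the 4 libraries, with few counts behind Xcr1. Of 13 genes of Langerhans and dendritic cells 7 were expressed.

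Mast cell genes of the connective tissue type were well above those of the mucosal type. Cma1, a chymase, had 29.2, 29.7, 32.2 and 30.2 FPKM, and Mcpt4, another chymase of connective tissue mast cells, 27.9, 29.4, 30.8 and 28.6 FPKM. Cpa3, the mast cell carboxypeptidase, had 26.3, 29.3, 25.3 and 21.8 FPKM. All 3 proteases were of like level. Mrgprb2, the receptor of skin mast cells for basic secretagogues, averaged 4.57 ± 0.505 FPKM. Mcpt1 and Mcpt2, the proteases of mucosal mast cells, had no count, which allows up to 0.0453 and 0.0433 FPKM over the 4 libraries. In all, 10 of 14 mast cell genes were expressed.

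Lymphocyte genes were low, and among T cell receptor constant genes Trbc2 stood highest, with Trdc above Trac. Trbc2, a constant gene of the beta chain, averaged 7.95 FPKM and held 38.7% of the summed FPKM of 8 such genes. It shares 44.0% of its words with other genes. Trdc, the constant gene of the delta chain, had 2.98, 2.51, 2.79 and 3.20 FPKM. Trac, the constant gene of the alpha chain, had 0.130, 0.520, 0.880 and 0.130 FPKM, from 25 counts in all. The order of Trdc over Trac held in each library, with a ratio between 3.17 and 24.6. Trgv5 and Trdv4, variable segments used by dendritic epidermal T cells, stood at 2.46 ± 0.440 and 4.39 ± 0.699 FPKM. Of 10 genes of these cells 7 were expressed, against 4 of 15 in the general T cell list and 23.9% of all listed genes. Among protein-coding genes 12087 of 21858 were expressed. Cd4 averaged 0.782 ± 0.129 FPKM and Cd8a had 1 count. Of 11 B and plasma cell genes 1 was expressed, Ighm, the IgM heavy chain gene, at 6.33 ± 0.920 FPKM. Ms4a1, the CD20 gene, had no count, which allows up to 0.00743 FPKM. Eomes, a factor of natural killer cells, had none either, with a limit of 0.0111 FPKM.

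Granulocyte genes were mostly near 0. Ly6g, the surface marker of mouse neutrophils, had no count in any library, which allows up to 0.0488 FPKM, and the granule gene Ngp had none with a limit of 0.0376 FPKM. Retnlg, another neutrophil gene, stood at 0.365 ± 0.355 FPKM from 14 counts. Against 23.9% of all listed genes and the larger share of protein-coding genes, 12087 of 21858, 3 of 13 neutrophil genes were expressed. They were Cxcr2 at 4.43 ± 0.303 FPKM, Mpo at 2.12 ± 0.387 FPKM and Mmp9 at 2.07 ± 0.0926 FPKM, all known from other cells as well. Epx, the eosinophil peroxidase, had no count, with a limit of 0.0168 FPKM. Ear2, which macrophages also make and which shares 41.5% of its words with other genes, was the 1 eosinophil gene expressed, at 3.48 ± 0.628 FPKM. Mcpt8, a basophil protease, had 3 counts.

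Among cytokines, those of the epidermis led. Il36g, an interleukin of the epidermis, was the highest of 40 interleukin genes at 84.4 ± 1.61 FPKM. Of 25 listed cytokine and chemokine genes 17 were expressed. Il18, which keratinocytes store as a precursor, averaged 59.9 ± 2.28 FPKM, Il33, an alarmin kept in cell nuclei, 49.0 ± 2.66 FPKM and Il34, the growth factor on which Langerhans cells depend, 22.4 ± 0.983 FPKM. Il1a, another stored keratinocyte cytokine, stood at 15.3 ± 0.525 FPKM. Tslp, the epithelial cytokine that drives type 2 responses, had 3.05, 5.77, 3.71 and 4.44 FPKM in replicates 1 to 4. It varied beyond counting error, with replicate 2 the highest. Il4, a product of mast cells, basophils and T cells, had 1.63, 1.29, 1.91 and 2.84 FPKM, and it also varied, highest in replicate 4. Il13 had 13 counts in all. Il17a and Ifng, effector cytokines of lymphocytes, had no count, with limits of 0.0393 and 0.0355 FPKM.

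Antimicrobial genes were led by beta-defensins. Defb6 had 95.04, 109.5, 102 and 102 FPKM and Defb1 37.6, 40.4, 37.7 and 40.0 FPKM. Defb14, the mouse counterpart of a defensin that inflamed human skin makes, had 31.4, 27.2, 26.7 and 20.4 FPKM. Of 42 beta-defensin genes 4 were expressed. Of the 9 antimicrobial genes listed 6 were expressed, none among the most abundant genes of the ear.

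The cathepsins and the vitamin D receptor had clear resting levels. Ctsb, the lysosomal cysteine protease cathepsin B, had 67.0, 69.5, 68.0 and 67.7 FPKM, with a spread of 1.02 FPKM. Of 23 cathepsin genes 12 were expressed, with the aspartic protease Ctsd highest at 151 ± 1.44 FPKM. Vdr, the receptor for vitamin D and for analogs such as MC903, averaged 11.2 ± 0.542 FPKM.

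Genes that report the state of the tissue were all expressed, apart from sex-linked ones. Of 14 clock genes 1 varied and of 13 immediate early and handling genes 3, against 10.3% of all genes tested. All 14 clock genes were expressed, with the repressors Nr1d2 at 58.5 ± 1.46 and Nr1d1 at 33.5 ± 0.917 FPKM and the activator Arntl at 4.59 ± 0.188 FPKM. The ratio of Nr1d1 to Arntl lay between 6.81 and 7.81. All 10 proliferation genes were expressed, with Mki67, a marker of cycling cells, at 13.3 ± 0.420 FPKM. All 13 immediate early and handling genes were expressed. Fos, which cells switch on within minutes of a stimulus, had 9.30, 7.13, 6.97 and 6.85 FPKM, and it varied, highest in replicate 1. Of the sex-linked genes, Xist, the RNA that silences an X chromosome, averaged 63.8 ± 0.609 FPKM, while the Y-linked genes Ddx3y, Uty and Eif2s3y had no count and Kdm5d had 1. The limits for those at 0 were 0.00884, 0.00469 and 0.0110 FPKM. All 4 libraries had this pattern.

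Markers of tissues next to the ear or far from it were mostly near 0. None of 5 bone, 5 lymph node and 5 liver genes was expressed, and 1 of 8 salivary gland, 1 of 8 inner ear and 1 of 6 ciliated and mucosal genes was. Tmc1 and Slc26a5, which inner ear hair cells need, had no count, with limits of 0.00639 and 0.0150 FPKM. Otoa, otherwise known from the inner ear, had 7.30, 7.52, 7.39 and 6.61 FPKM, from 3969 counts, and it was the exception of its list. Amy1, an amylase known from salivary gland and liver, averaged 4.16 ± 0.325 FPKM and Scgb1a1, a secretory protein of airways, 4.47 ± 0.389 FPKM. Aqp4, a water channel of brain glia that fast muscle fibres carry too, was the 1 expressed gene of 5 in the brain list, at 1.25 ± 0.129 FPKM.

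The 4 libraries differed little from one another. The common biological coefficient of variation that edgeR estimated over 17440 genes was 3.64%. For the 3786 genes with a mean count of 1000 or more, the coefficient of variation of FPKM had a median of 3.07%, and 90% of them lay between 1.09% and 6.15%. By the chi-square test, 1797 genes varied beyond counting error, of which 552 were highest in replicate 4, 443 in replicate 2, 422 in replicate 1 and 380 in replicate 3. The lowest value lay in replicate 4 for 505 of them, in replicate 2 for 494, in replicate 3 for 406 and in replicate 1 for 392. Without replicate 4 the number of varying genes was 876, and without replicate 2 it was 1064.

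**Figure D4:**
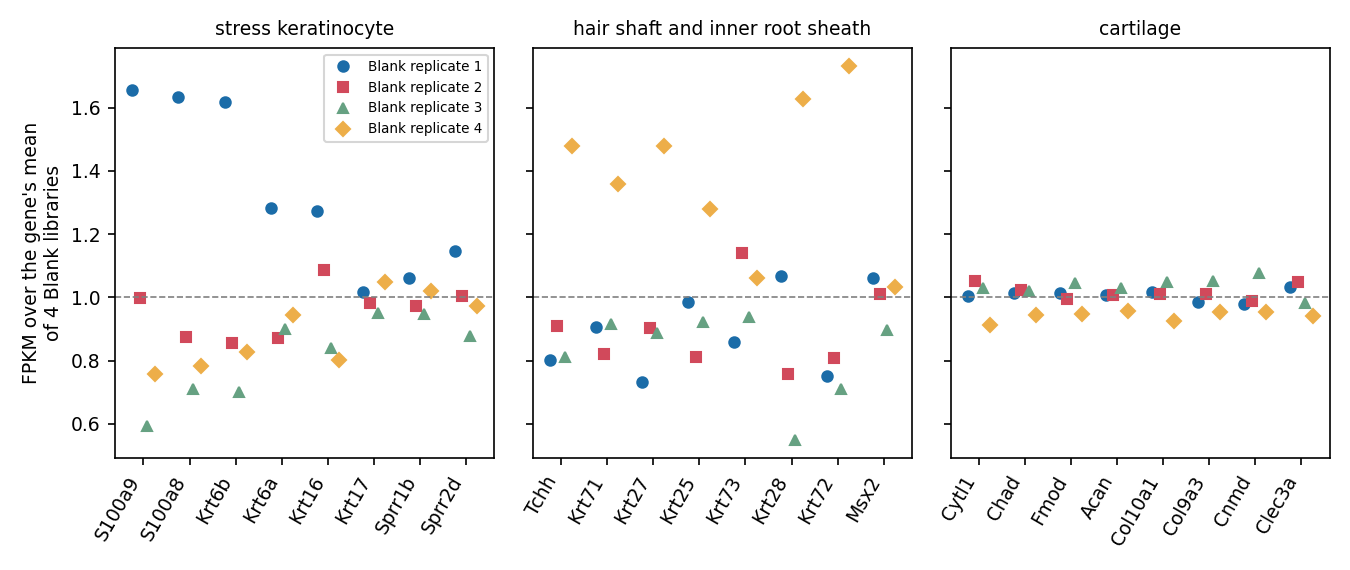
FPKM of 8 genes each of the stress keratinocyte, hair and cartilage lists divided by the gene's mean over the 4 Blank libraries (vertical), by gene (horizontal), with 1 symbol for each library and a dashed line at 1. S100a9 and S100a8 lie highest in replicate 1, Tchh and Krt27 highest in replicate 4, and Cytl1 and Chad lowest in replicate 4.

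In several marker lists the genes that varied shared their highest or lowest library, while most of the 1797 lie outside the lists. Of 72 keratinocyte genes 38 varied, 19 with replicate 4 the highest and 15 with replicate 1. Dermal, cartilage, fat and nerve genes that varied were mostly lowest in replicate 4, in 13 of 14, 11 of 11, 4 of 5 and 5 of 5 cases. Muscle genes differed from these, with 20 of the 31 that varied lowest in replicate 3 and 8 in replicate 4. Among all 1797 genes that varied, 505 were lowest in replicate 4 and 406 in replicate 3. In immune genes 7 of 83 varied and in vessel genes 3 of 36, near the 10.3% of all genes tested. Deeply counted genes are called at smaller differences, and among all genes with a mean count of 1000 or more 730 of 3786 varied. Since the shares of 1 library sum to a whole, a higher epidermal share and a lower share of dermis and cartilage in replicate 4 cannot be told apart from each other.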

How the data were processed

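RNA was extracted from ear tissue with Trizol and captured with poly-T beads, and the library fragments were amplified by 15 cycles of PCR, per the labels' protocols. Reads were processed with fastp 0.22.0, HISAT2 2.1.0 and HTSeq 0.9.1, per the submitters' processing notes. The genome build and the strand setting are not given in the sources used here, so overlapping and antisense genes may share counts. The deposited coordinates do not match the GRCm38.p6 promoters, with Krt10 at chr11:99276080-99280190 and its promoter at chr11:99389345-99389424. The deposited table gives raw counts per gene and the authors' FPKM values. All FPKM values of the 4 Blank libraries equalled count over exonic length and library total within 0.005. No molecular identifiers were used, so limits for genes without a count (3 counts over the 4 libraries) cover counting error only.

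From these, means and SDs, shares of summed FPKM and ratios were computed with Python 3.11.15 (numpy 2.4.6, pandas 2.3.3, scipy 1.17.1). Variation was tested per gene by a chi-square test of counts over 4 libraries (3 degrees of freedom, TMM-scaled sizes from edgeR 4.0.16 in R 4.3.3) in 17440 genes with a mean count of 10 or more, with Benjamini-Hochberg adjusted p under 0.05. The test was first tested on simulated data. Of 200 better counted genes given a true coefficient of variation of 10%, 20% or 50%, it called 44.5%, 82.5% and 97%. A gene not called may therefore still vary. Shared sequence is the percent of a gene's 50-base words (GENCODE M21 transcripts) found in another gene. Of 577 list genes 576 were matched. The gene lists and the libraries were chosen with earlier results of these data known. Named are the 25 highest genes, the 4 highest of each list, up to 5 genes a list without a count where a cell type may be absent, the 15 most varying genes and a fixed panel; other genes named were chosen after their values were seen. Alternatives changed the threshold, the scale, the total, the size factors (DESeq2 1.42.0), the count filter and the libraries used. Some items are not reported here.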

Additional observations from a re-analysis of the deposited data

Results flagged for a closer look

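Among 257 lists, systems and genes with at least 100 counts, 22 had 1 of the 4 libraries far from the other 3, by the gap to the nearest library over the whole range exceeding Dixon's critical value for 4 samples at 95%. Chance flags about 1 in 20 (5%).

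Replicate 4 stood apart in several. The hair shaft and inner root sheath list was high there, with a gap over range of 0.9981, as was its member Tchh with 0.8408. The granular and cornified layer list, at 2.12%, 2.13%, 2.13% and 2.21% of the summed FPKM, had 0.9015, and its leading gene Krt2 had 0.8442. Eef1a1, a translation factor gene with 40.4% shared sequence, was also high there at 0.8856. Chad (0.8659) and Sox9 (0.9049) of cartilage, Col3a1 (0.8693) of the dermis, S100b (0.9207) of the nerve list and Mgl2 (0.9502), a lectin of dermal macrophages and dendritic cells with 16.2, 16.3, 16.3 and 14.3 FPKM, were low there.

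Replicate 1 was high for mt-Co1 (0.8332), a mitochondrially encoded gene, and for Gm28438 (0.9126), which had 189, 55.2, 63.9 and 51.9 FPKM and shares 99.0% of its 50-base words with another gene. It was low for Calm4 (0.8311), Cox8b (0.967), the leukocyte surface gene Cd52 (0.97) and the cyclin gene Ccna2 (0.8437). Replicate 2 was high for Hbb-bs (0.9115), Mfap4 (0.8543), a microfibril-associated gene, and Lor (0.8471). Replicate 3 was high for the pan leukocyte list (0.8626), the class II list (0.9042) and Il1rl1 (0.8529), the receptor gene for IL-33, at 0.970, 1.02, 1.31 and 1 FPKM.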

How the results depend on the processing

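The number of expressed genes was 13571 at 1 FPKM, 7884 at 5 FPKM, 19230 at 0.1 FPKM, 16444 at a count of 10 and 16437 at 1 TPM, and between 13707 and 13725 with 1 library left out. The number of varying genes lay between 876 and 1339 with 1 library left out, and between 1510 and 1803 under the other scalings and count filters. The smaller number of libraries lowers the power of the test by construction. The coefficient of variation lay between 3.31% and 3.83% with 1 library left out.

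The shares of the systems depend on the scale. As a percent of all counts they were 5.75% for keratinocyte, 1.01% for appendage, 1.60% for dermis, 0.492% for cartilage, 0.1003% for nerve and 0.173% for immune genes. With mitochondrially encoded genes left out of the total they were 9.10% for keratinocyte, 0.902% for appendage, 1.14% for dermis, 0.907% for cartilage, 0.188% for fat, 1.39% for muscle, 0.123% for vessel, 0.141% for nerve and 0.320% for immune genes. Without its leading gene a system held 6.01% (keratinocyte), 0.268% (appendage), 0.528% (dermis), 0.304% (cartilage), 0.102% (fat), 0.951% (muscle), 0.0782% (vessel), 0.0770% (nerve) and 0.209% (immune). No system share moved beyond its spread with 1 library left out. With 4 libraries this outcome is fixed by arithmetic, since leaving 1 out cannot move a mean by 1 SD. It therefore does not show that the shares are robust.

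Of 259 named genes, 236 had a TPM beyond 1 SD of the mean FPKM, since the scale differs, and none moved with TMM scaling. None moved with 1 library left out either, which is again fixed by arithmetic. No paired analysis was possible because only 1 group was described. With 4 libraries of 1 group, differences between ears, cages or days were not tested, and genes with few counts, such as Trac and Xcr1, have wide relative error.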

Other observations

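Mitochondrially encoded genes were of very unequal level, and some share nearly all of their sequence with nuclear copies. mt-Nd1, with no shared 50-base word, averaged 14005 ± 359 FPKM and mt-Cytb, also with none, 13000.1 ± 361 FPKM. mt-Co2, wholly shared, stood at 193 ± 46.6 FPKM, and mt-Co3, 99.9% shared, at 89.6 ± 16.3 FPKM. mt-Co1, 51.1% shared, was the highest at 22081 ± 481 FPKM. Nuclear copies were counted beside them, with Gm28661, wholly shared, at 140 ± 27.7 FPKM and Gm28437, wholly shared, at 73.1 ± 10.96 FPKM. The treatment of reads that match more than 1 gene is not stated in the sources used here.

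By gene class, protein-coding genes held 88.0% ± 0.217 of the counts (SD, n = 4), mitochondrially encoded genes 9.09% ± 0.217, pseudogenes 0.869% ± 0.00935 and lincRNAs 0.802% ± 0.0137. Of the classes, 12087 protein-coding genes, 600 pseudogenes and 183 lincRNAs were expressed. Classes come from GENCODE M21, in which 52073 of the identifiers were found. Rn18s-rs5, a ribosomal RNA gene, ranked 4 among genes not encoded in mitochondria, with 2220, 2627, 2457 and 2232 FPKM, in libraries made from RNA captured by its poly-A tail.

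The S100 genes, small calcium-binding proteins, held 0.435% ± 0.0124 of the summed FPKM, with 12 of 17 expressed. S100a4, a gene of motile and mesenchymal cells, led them at 275.6, 300, 324 and 278 FPKM. Hba-a1, an adult alpha-globin, stood at 32.7 ± 1.43 FPKM while its near-identical copy Hba-a2 had 1 count, and 72.3% and 89.3% of their 50-base words lie in another gene, so the pair is best read as a sum.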
